A study of Citrus maxima with 12 samples.

Results

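Messenger RNA of control fruit was compared between Jinlan and Jinsha, cultivars of pomelo (Citrus maxima). The comparison used 6 of the 12 RNA sequencing libraries of a study of yellow spot disease: 3 libraries of Jinlan control fruit and 3 of Jinsha control fruit. The other 6 libraries, 3 of diseased Jinlan fruit and 3 of diseased Jinsha fruit, were used to follow the differences. The members were taken by cultivar and treatment label, and the tissue is given only as fruit. The labels name no fruit part, tree, orchard or harvest date, so cultivar cannot be told apart from any of these. The labels call the replicates biosamples without saying whether each is another fruit or tree, so a p-value here measures the spread of 3 and 3 libraries, which may be technical.

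Pomelo is the large-fruited citrus species that is an ancestor of grapefruit, sweet orange and many other hybrids. Its fruit has a thick peel, with an oil-gland-bearing outer layer and a spongy white inner layer, around segments filled with juice sacs. Cultivars of a species carry different alleles of the same genes, and their fruit can differ in RNA levels without any disease, so control fruit gives the baseline for a comparison of diseased fruit.

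The values are FPKM, read fragments relative to the length of a transcript and to the mapped total of its library, for 32863 identifiers. No gene name or product accompanies an identifier in the files, so only a few genes are singled out, and the fruit label could not be checked against marker genes. Of the identifiers, 8588 were listed at 0 in all 6 control libraries, 7710 had values but missed the filter, and 16565 reached at least 1 FPKM in at least 3 of the 6 and were tested. Of those tested, 15442 reached 1 FPKM in all 6 control libraries, 172 did so in the 3 Jinlan libraries and in none of Jinsha, and 207 in the 3 Jinsha libraries and in none of Jinlan. A gene of the last 2 classes passed only through the cultivar in which it was high.

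The replicates lay close together. On the log2(FPKM + 1) scale, Pearson's r over the tested genes was 0.9925 to 0.9939 between Jinlan libraries and 0.9923 to 0.9941 between Jinsha libraries, and 0.9554 to 0.9615 between the cultivars. The median standard deviation of a gene between replicates was 0.0865 in Jinlan and 0.0857 in Jinsha. Jinlan control replicate 3 stood slightly nearer to Jinsha, with a mean r to the Jinsha libraries of 0.9613, against 0.9576 for replicate 1 and 0.9563 for replicate 2. Among the 129 genes with a standard deviation over 0.5 in Jinlan, replicate 3 was the library farthest from the median for 58. The results below are therefore also given without it where it moved them.

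Most genes differed little in size between the cultivars. The median absolute difference was 0.26 on the log2(FPKM + 1) scale, the 90th percentile was 0.77 and the 99th was 1.60. The 95% interval of the difference lay wholly within a 2-fold change for 14812 genes, 89.4% of those tested, and wholly inside a 1.5-fold change for 10821, or 65.3%. Small differences were nevertheless often larger than the replicate spread, since the libraries of the cultivars did not overlap for 64.1% of the tested genes. In bulk tissue, fewer cells of a type and less RNA per cell cannot be told apart.

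With limma and Benjamini-Hochberg adjustment over all tested genes, 9362 genes (56.5%) had an adjusted p below 0.05 and are referred to as called. Of these, 3400 (20.5%) were higher and 5962 (36%) lower in Jinlan, so 36.3% of the calls were higher. That split depended on how libraries were scaled. After median-ratio scaling 4553 genes were higher and 4552 lower, and after quantile normalization 4481 and 4478. Median-ratio scaling centres the typical difference between libraries near 0, and quantile normalization gives the libraries a common distribution. A near-even split is thus favoured by these scalings and cannot show which split is right. The median difference of all tested genes was -0.09 as deposited and -0.0018 after median-ratio scaling, and the size of each difference below is to be read against that shift.

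At 2-fold or more, 846 genes (5.11%) were called, with 342 (2.06%) of them higher in Jinlan and 504 (3.04%) lower. Of the 342, 46 had passed the filter through Jinlan alone, and of the 504, 35 through Jinsha alone. These had to differ without overlap, though not by 2-fold. Among genes with at least 1 FPKM in all 6 control libraries, 277 were higher and 444 lower in Jinlan. Of the 342, 341 had no overlap between the libraries of the cultivars, as had 499 of the 504, against 64.1% of all tested genes. The choice by call and size favours this, so it is no separate support. Median-ratio scaling gave 423 higher and 399 lower, so the excess of genes lower in Jinlan depended on the scaling. The 399 were all among the 504, which a shift common to all genes brings about. Without Jinlan control replicate 3 the numbers were 369 and 583. Large differences were few. A 4-fold difference was reached by 31 genes higher in Jinlan and 24 lower, and an 8-fold one by 3 higher and 1 lower. A further 9 genes higher and 4 lower differed 2-fold in the mean but were not called.

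**Figure D1:**
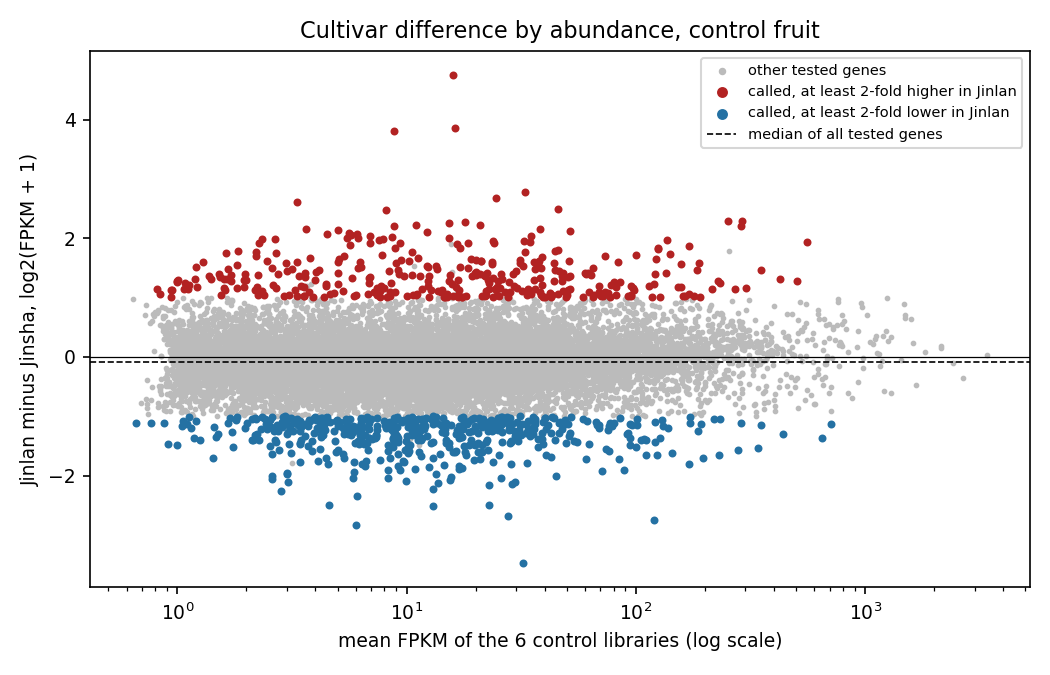
Difference between Jinlan and Jinsha control fruit on the log2(FPKM + 1) scale against the mean FPKM of the 6 control libraries (log axis), with 1 point per tested gene. Red points are the 342 genes called at least 2-fold higher in Jinlan, blue points the 504 called at least 2-fold lower, and the dashed line is the median of all tested genes at -0.09.

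The balance of the 2-fold genes changed with abundance. Among the 6254 genes with a mean of 5 to 20 FPKM over the 6 libraries, 105 (1.68%) were higher and 212 (3.39%) lower in Jinlan, and the median difference of all genes of that class was -0.15. Among the 1109 genes at 100 FPKM or more, 35 (3.16%) were higher and 32 (2.89%) lower, and the median difference was 0.06. The 4920 genes at 20 to 100 FPKM lay between, with 119 (2.42%) higher and 136 (2.76%) lower and a median of -0.05. At 2 to 5 FPKM, 47 (1.80%) of 2616 genes were higher and 100 (3.82%) lower. Below 2 FPKM, where the pseudocount compresses differences, 36 of 1666 genes were higher and 24 lower. No test was made between the classes, and the counts by class were not repeated after median-ratio scaling.

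Library by library, the deposited values showed the same tilt. Jinlan libraries had 9180, 9157 and 9070 genes at 10 FPKM or more, against 9708, 9666 and 9579 in Jinsha libraries. A count at a fixed FPKM depends on the scaling, as the split of the calls did, and it was not repeated after median-ratio scaling. The 100 most abundant genes of a library held 17.2%, 17.5% and 17.2% of its total FPKM in Jinlan, and 15.7%, 15.8% and 16.1% in Jinsha. Neither measure overlapped between the cultivars, and each had p = 0.1 in an exact two-sided permutation test, the smallest that 3 against 3 libraries allow. The means were 9136 ± 58 genes in Jinlan and 9651 ± 65.8 genes in Jinsha, and shares of 17.3 ± 0.18% in Jinlan and 15.9 ± 0.25% in Jinsha (SD, n = 3 each). The 10 most abundant genes held 3.87 ± 0.11% in Jinlan and 3.71 ± 0.19% in Jinsha, which overlapped (p = 0.4, same exact permutation test). The identities at the top were largely shared: 6 of the 10, 81 of the 100 and 846 of the 1000 most abundant genes of each cultivar were the same. Of the 81, 0 were called at 2-fold, and of the 846, 25 were, against 5.11% of all tested genes. A shared gene had to rank high in both cultivars, which disfavours a large difference.

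Named genes were those with the largest difference of mean FPKM in each direction among called genes that differed at least 2-fold without overlap, 2 in each direction. They are therefore abundant transcripts. Their levels are described as chosen for that difference.

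Cg3g017900 had 903, 899 and 864 FPKM in Jinlan control libraries, against 224, 231 and 238 FPKM in Jinsha control libraries. All 3 Jinlan libraries lay far above all 3 Jinsha libraries. It ranked 43rd in abundance in Jinlan and 330th in Jinsha. The log2 difference was 1.94 (SE 0.06, limma adjusted p = 1.5e-07), 3.83-fold on that scale. In diseased fruit the order of the cultivars was the opposite, with 780, 781 and 852 FPKM in Jinlan and 1060, 1267 and 1108 FPKM in Jinsha. The difference there was -0.51 (SE 0.09, limma adjusted p = 0.00137). Jinlan averaged 804 ± 41.3 FPKM in diseased and 888 ± 21.3 FPKM in control fruit, and Jinsha 1145 ± 108 FPKM in diseased and 231 ± 6.84 FPKM in control fruit (SD, n = 3 each), so the distance between the kinds of fruit was wider in Jinsha.

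Cg8g014070 had 719, 741 and 673 FPKM in Jinlan control libraries and 286, 285 and 309 FPKM in Jinsha control libraries. The groups did not overlap, and the log2 difference was 1.27 (SE 0.07, limma adjusted p = 1.65e-06). In diseased fruit the cultivars met, at 461, 489 and 539 FPKM in Jinlan and 464, 497 and 532 FPKM in Jinsha. The difference there was -0.01 (SE 0.08, limma adjusted p = 0.962), within the spread of the replicates.

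Cg9g025190 was lower in Jinlan, with 358, 395 and 339 FPKM in Jinlan control libraries and 896, 971 and 942 FPKM in Jinsha control libraries. It ranked 172nd in Jinlan and 34th in Jinsha. The log2 difference was -1.36 (SE 0.07, limma adjusted p = 2.09e-06). In diseased fruit it was again lower in Jinlan, at 241, 256 and 170 FPKM against 844, 811 and 904 FPKM in Jinsha. The libraries of the cultivars overlapped in neither kind of fruit.

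Cg3g018510 had 454, 467 and 403 FPKM in Jinlan control libraries, against 963, 1097 and 853 FPKM in Jinsha control libraries. The lowest Jinsha library lay well above the highest Jinlan library, with a log2 difference of -1.13 (SE 0.10, limma adjusted p = 2.73e-05). In diseased fruit the values were 432, 393 and 457 FPKM in Jinlan and 422, 354 and 395 FPKM in Jinsha, which overlapped. The difference was 0.13 there (SE 0.09, adjusted p = 0.216 with limma).

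Few genes were switched between the cultivars. By a description chosen with the data in view, 4 genes had at least 5 FPKM in every Jinlan control library and less than 1 FPKM in every Jinsha control library, with 5.24 to 34.1 FPKM in Jinlan. The reverse held for 2 genes, with 7.62 to 15.7 FPKM in Jinsha, and for 6 genes without Jinsha control replicate 2. In diseased fruit 0 of the 4 and 0 of the 2 met both limits again. One of the 4 came near, with 8.16 to 9.56 FPKM in Jinlan and 0.663 to 1.44 FPKM in Jinsha diseased libraries, and another was below 1 FPKM in all 6 diseased libraries. The 2 genes of the reverse kind were again lower in Jinlan, with 0.962 to 2.54 FPKM in Jinlan and 4.41 to 7.58 FPKM in Jinsha diseased libraries. The gene with the largest log2 difference of all tested, Cg4g007640, was among the 4. It had 32.3, 34.1 and 28.7 FPKM in Jinlan control libraries, while Jinsha control replicates 1 and 2 had 0.278 and 0.392 FPKM and replicate 3 was listed at 0.

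The 2-fold genes were then followed in the 6 diseased libraries, which had no part in choosing them. The question was whether a cultivar difference of healthy fruit was also present in diseased fruit. In diseased fruit 66.4% of the 16565 tested genes were called, 27.8% as higher and 38.6% as lower in Jinlan, and 10.1% were called at 2-fold or more, so part of each number below would be met among any tested genes.

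Genes higher in Jinlan control fruit were mostly higher in Jinlan diseased fruit too. Of the 342, 217 (63.5%, against 27.8% of all tested genes) were called higher, 127 of them at 2-fold or more (6.6% of all tested genes). Another 69 (20.2%, against 38.6% of all tested genes) were called lower in Jinlan, 35 of them at 2-fold or more (3.51% of all tested genes). The other 56 were not called. The median log2 difference of the 342 genes was 1.31 in control fruit, by which they were chosen, and 0.70 in diseased fruit, against -0.08 in diseased fruit for the 7203 genes not called in control fruit.

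Genes lower in Jinlan control fruit were also called in both directions in Jinlan diseased fruit, more often lower than higher. Of the 504, 240 (47.6%, against 38.6% of all tested genes) were called lower in Jinlan diseased fruit, 99 of them at 2-fold or more (3.51% of all tested genes). Another 135 (26.8%, against 27.8% of all tested genes) were called higher, and 129 were not called. The median log2 difference of the 504 genes was -1.24 in control fruit and -0.25 in diseased fruit. Whether the shares of the 342 and of the 504 genes differ was not tested. After median-ratio scaling, 62.6% of the genes higher in control fruit were called higher in diseased fruit (32.7% of all tested genes), and 45.4% of those lower were called lower (32.3% of all). Without Jinlan control replicate 3 the opposite call was made for 188 of 583 genes lower in Jinlan control fruit, or 32.2%, and for 77 of 369 genes higher in it, or 20.9%.

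**Figure D2:**
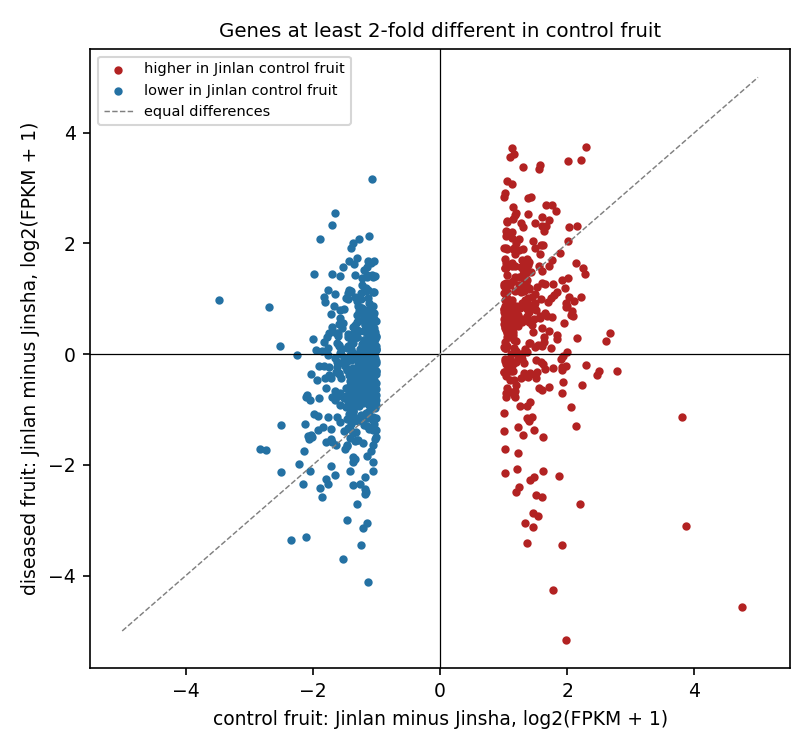
Difference between Jinlan and Jinsha in diseased fruit (vertical axis) against that in control fruit (horizontal axis), both on the log2(FPKM + 1) scale, for the 846 genes called at least 2-fold different in control fruit. Red points are the 342 genes higher in Jinlan control fruit and blue points the 504 lower. Points of each colour lie on both sides of 0 on the vertical axis. Above it are 245 of the 342 red points (median 0.70), and below it 308 of the 504 blue points (median -0.25). Of the 7203 genes not called in control fruit, which are not drawn, 3029 lay above 0 and 4174 below it in diseased fruit. A majority below 0 was thus also met among genes not called.

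The share of genes called in the same direction in diseased fruit did not follow the size of the control-fruit difference step by step. Among genes higher in Jinlan the share called higher in diseased fruit was 39.1% of 2362 genes that differed under 1.5-fold in control fruit and 53.3% of 696 genes at 1.5- to 2-fold. It was 65.8% of 237 genes with a log2 difference of 1 to 1.5, 56.8% of 74 genes at 1.5 to 2, and 61.3% of 31 genes at 4-fold or more. Among genes lower in Jinlan the corresponding shares called lower were 47.5% of 4109, 40.3% of 1349, 47.4% of 397, 41% of 83 and 75% of 24 genes. In diseased fruit 27.8% of all tested genes were called higher and 38.6% lower. The shares of 40.3% and 41% thus lay near that of all genes. No test was made between these classes. At 8-fold or more, all 3 genes higher in Jinlan control fruit were called lower in Jinlan diseased fruit. Of these, Cg4g007640 and Cg3g017920 had means of 0.22 and 0.31 FPKM in Jinsha control fruit. They passed the filter through Jinlan alone, so they had to differ, though not by 8-fold. With Jinsha values that near 0, the size of the difference depends on the pseudocount. The 1 gene lower in control fruit was called higher in diseased fruit, with a log2 difference of 0.97. So few genes are given as a description. Across all tested genes, Pearson's r between the control-fruit and diseased-fruit differences was 0.20, a description over genes of libraries that share a cultivar and not a test.

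**Figure D3:**
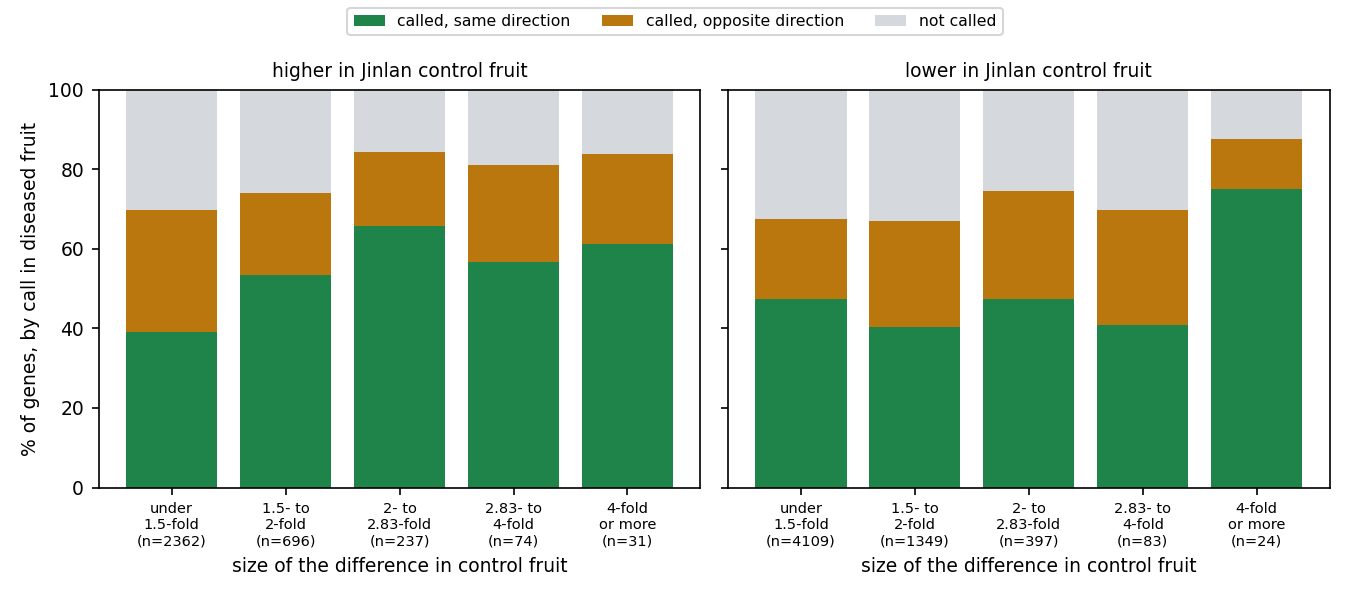
Calls in diseased fruit of genes called in control fruit, by the size of their control-fruit difference, as a percentage of the genes of each class (n under each bar). Green is called in the same direction, brown in the opposite direction and grey not called. The left panel holds genes higher in Jinlan control fruit (27.8% of all tested genes were called higher in diseased fruit). The right panel holds those lower (38.6% of all tested genes were called lower), where the green share is 75% of the 24 genes at 4-fold or more.

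The summed expression of each set was compared as well. The 342 genes held 3.59%, 3.56% and 3.46% of the total FPKM of Jinlan control libraries and 1.31%, 1.32% and 1.30% of that of Jinsha control libraries, by which they were chosen. In the diseased libraries they held 2.94%, 3.04% and 3.10% in Jinlan, against 2.49%, 2.53% and 2.52% in Jinsha. Those values did not overlap, with a mean difference of 0.51 percentage points (exact two-sided permutation p = 0.1, the smallest possible).

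The 504 genes held 1.43%, 1.40% and 1.53% in Jinlan control libraries and 3.80%, 3.74% and 3.72% in Jinsha control libraries. In diseased libraries they held 2.16%, 2.13% and 1.95% in Jinlan, against 2.66%, 2.68% and 2.62% in Jinsha. The mean difference in diseased fruit was -0.57 percentage points, again without overlap (exact permutation p = 0.1, the smallest possible). In each set the cultivars thus lay on the same sides in diseased and control fruit. The distance was smaller in diseased fruit, but the control values had chosen the genes, and the 2 distances were not tested against each other.

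**Figure D4:**
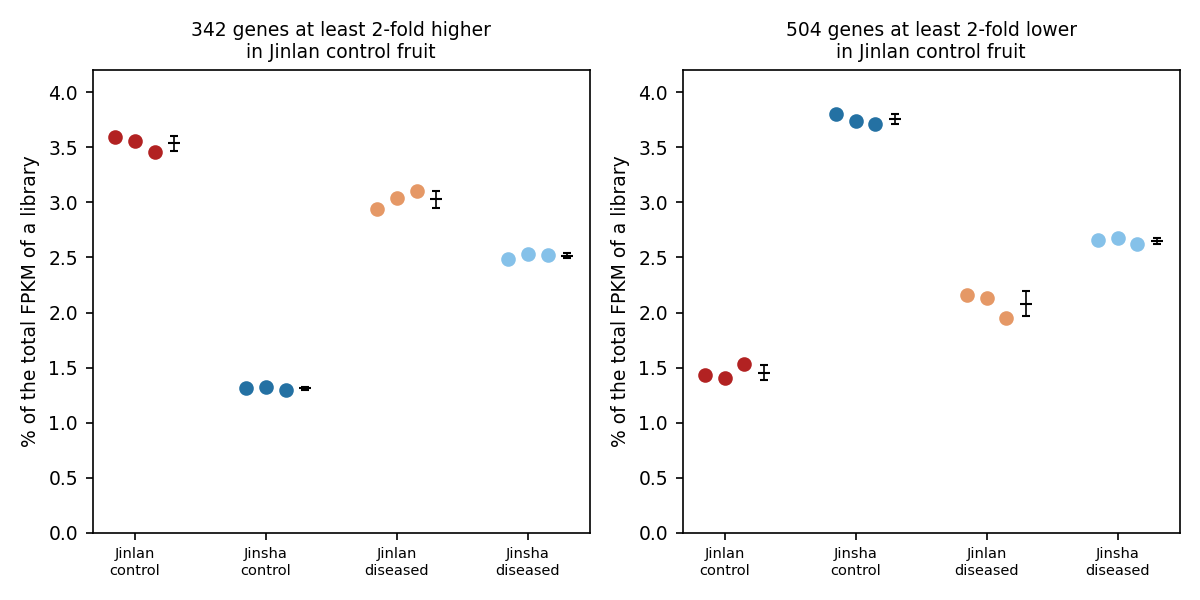
Share of a library's total FPKM held by the 342 genes higher (left) and the 504 genes lower (right) in Jinlan control fruit, in percent; points are replicates 1, 2 and 3 and bars the mean and SD of a group. The gap between the cultivars in diseased fruit (on the left 3.03 ± 0.079% in Jinlan and 2.51 ± 0.022% in Jinsha) is smaller than that in control fruit (3.54 ± 0.07% in Jinlan and 1.31 ± 0.013% in Jinsha).

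Whether the cultivar difference itself differed between diseased and control fruit was tested as an interaction in a fit to all 12 libraries. It was called for 9759 genes (58.9%). Among the 342 genes higher in Jinlan control fruit it was called for 273, with 214 shifted against the control-fruit direction in diseased fruit and 59 along it. Among the 504 lower genes it was called for 427, with 393 shifted against that direction and 34 along it. The control values that chose the genes are also a term of the interaction, so a shift against the direction is favoured by the choice, and the counts are a description.

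A small group turned round, being called at least 2-fold different in opposite directions in control and diseased fruit: 35 genes were higher in Jinlan control and lower in Jinlan diseased fruit, and 44 the other way. The 35 are 10.2% of the 342, where 3.51% of all tested genes were at least 2-fold lower in Jinlan diseased fruit. The 44 are 8.73% of the 504, near the 6.6% of all tested genes that were at least 2-fold higher in it. The median FPKM of the 35 genes was 17.3 in Jinlan and 4.45 in Jinsha control fruit, and 8.09 in Jinlan and 40.1 in Jinsha diseased fruit. That of the 44 genes was 8.23 in Jinlan and 23.6 in Jinsha control fruit, and 21.8 in Jinlan and 9.28 in Jinsha diseased fruit. Jinlan control replicate 3 was the Jinlan library nearest to Jinsha for 26 of the 35 and 37 of the 44 genes, against 198 of all 342 and 264 of all 504. Without that library 36 of 369 genes (9.76%) turned from higher to lower and 69 of 583 (11.8%) from lower to higher, so the second number depended on it.

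The genes with the largest opposite difference in diseased fruit were named, 2 in each direction. Cg8g006130 had 12.5, 12.8 and 12.9 FPKM in Jinlan control libraries and 2.51, 2.74 and 2.19 FPKM in Jinsha control libraries. In diseased fruit it had 4.61, 4.55 and 1.99 FPKM in Jinlan and 174, 165 and 145 FPKM in Jinsha. The higher cultivar was thus Jinlan in control fruit, with a log2 difference of 1.98 (SE 0.08, limma adjusted p = 6.53e-07), and Jinsha in diseased fruit, with -5.16 (SE 0.22).

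Cg4g007640, given above for control fruit, had 1.38, 1.6 and 3.97 FPKM in Jinlan and 68.2, 78.7 and 73.4 FPKM in Jinsha diseased libraries. The gene passed the filter through Jinlan alone, where it was high, so its control-fruit difference is given as a description with no test. Its log2 difference was -4.57 (SE 0.24) in diseased and 4.75 in control fruit. The control value depended on the pseudocount, being 6.90 with 0.1 and 2.81 with 5 in place of 1, since Jinsha control libraries were near 0.

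Cg8g017790 had 17.3, 14.1 and 36.1 FPKM in Jinlan control libraries and 48, 46.8 and 40.3 FPKM in Jinsha control libraries. Replicate 3 of Jinlan lay close to the lowest Jinsha library, but the cultivars did not overlap. In diseased fruit it had 145, 169 and 123 FPKM in Jinlan and 12.8, 21.6 and 12.5 FPKM in Jinsha. The control-fruit difference was -1.08 (SE 0.27, limma adjusted p = 0.0089). Without 1 control library it ranged between -1.47, without Jinlan control replicate 3, and -0.82, without Jinlan control replicate 2. It fell short of the 2-fold limit by which the gene was chosen also without Jinlan control replicate 1 (-0.95), after median-ratio scaling (-0.98) and with a pseudocount of 5 (-0.94). With robust empirical Bayes it was no longer called (adjusted p = 0.0569, where the 20 alternatives ranged from 2.55e-05 to 0.0569 with limma).

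Cg4g015400 had 7.24, 4.84 and 14.3 FPKM in Jinlan control libraries and 29.1, 27.5 and 25.6 FPKM in Jinsha control libraries. Here too Jinlan replicate 3 was the highest of its group, but the cultivars did not overlap. In diseased fruit it had 62.6, 73.6 and 62.2 FPKM in Jinlan and 9.71, 12.2 and 9.77 FPKM in Jinsha. The control-fruit difference was -1.65 (SE 0.28, limma adjusted p = 0.00106), and it ranged from -2.03, without Jinlan control replicate 3, to -1.34 as single control libraries were left out.

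**Figure D5:**
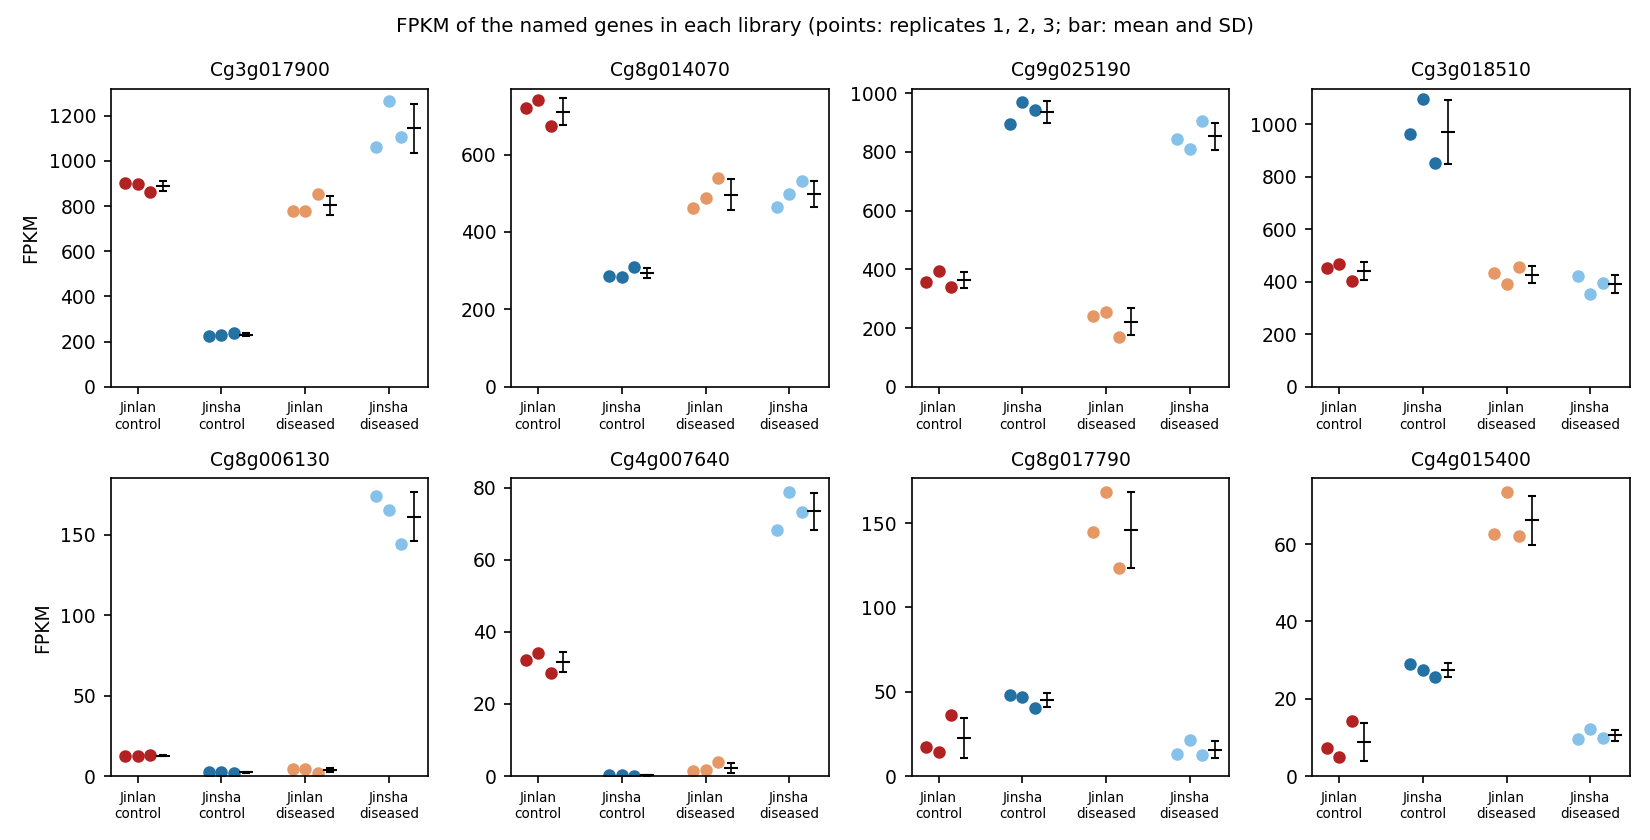
FPKM of the 8 named genes in each library, with 1 panel per gene and axes from 0; points are replicates 1, 2 and 3 of each group and bars the mean and SD. In the top row Cg9g025190 is lower in Jinlan in both kinds of fruit, while the cultivars overlap in diseased fruit for Cg8g014070 and Cg3g018510; in the bottom row the higher cultivar changes between control and diseased fruit.

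A minority of the 2-fold genes had a neighbour in the numbering that belonged to the same set, a larger share than among other genes. The difference between the shares was not tested. Neighbours were taken as identifiers with the same prefix whose numbers differ by 10, the usual step. The sources used here do not state that the numbers follow the order along a chromosome, and the description was chosen with the data in view. Of 286 genes at least 2-fold higher in Jinlan that had a tested neighbour, 30 (10.5%) had a neighbour in the same set, against 390 of 13240 other genes (2.95%). Of 396 genes at least 2-fold lower, 73 (18.4%) had a neighbour in the same set, against 517 of 13130 others (3.94%). A neighbour in the opposite set was found for 5 of the 286 and for 5 of the 396 genes. Of all genes outside the lower set 3.94% had a neighbour in it, and of those outside the higher set 2.95% had a neighbour in that one.

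The higher genes formed 15 pairs and no longer run, and the lower genes formed 26 pairs and 7 runs of 3. The shares were 11.3% and 18.1% without Jinlan control replicate 3, against 3.07% and 4.52% of the other genes, and 10.8% and 18.8% after median-ratio scaling, against 3.59% and 3.07%. No sequence was used, so whether neighbouring identifiers share reads was not tested.

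The surroundings of the first 4 named genes were looked at up to a distance of 20. The identifier numbered 10 below Cg8g014070 had 613, 572 and 628 FPKM in Jinlan control libraries and 249, 244 and 234 FPKM in Jinsha control libraries. Its Jinlan diseased libraries averaged 771 ± 31.4 FPKM and its Jinsha diseased libraries 322 ± 42.4 FPKM (SD, n = 3 each), without overlap, whereas those of Jinlan and Jinsha overlapped for Cg8g014070 itself. The identifier numbered 10 above Cg8g014070 had 267 ± 2.78 FPKM in Jinlan and 270 ± 10.5 FPKM in Jinsha control fruit, so the difference did not extend to it. That 20 below Cg8g014070 was not called either, with a log2 difference of -0.0052 (limma adjusted p = 0.965).

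The identifier numbered 20 below Cg9g025190 was not called in control fruit, with a log2 difference of 0.03 (limma adjusted p = 0.775). Both identifiers that follow Cg9g025190, by 10 and by 20, were also lower in Jinlan. The first had 220, 239 and 197 FPKM in Jinlan control libraries and 452, 500 and 501 FPKM in Jinsha control libraries. It had 51.1, 64.8 and 31.5 FPKM in Jinlan diseased libraries and 396, 392 and 412 FPKM in Jinsha diseased libraries, a log2 difference of -3.06 in diseased fruit beside -1.15 in control fruit. The second was low, with 1.76, 2.77 and 0.638 FPKM in Jinlan and 3.53, 8.62 and 3.52 FPKM in Jinsha control libraries. The identifier numbered 20 above Cg3g017900 had 17.5, 17.8 and 16.5 FPKM in Jinlan and 0.443, 0.26 and 0.22 FPKM in Jinsha control libraries. Like Cg3g017900, it was higher in Jinsha in diseased fruit, where Jinlan libraries had 8.8, 9.41 and 7.9 FPKM and Jinsha libraries 17, 23 and 21.5 FPKM. The identifier numbered 10 above Cg3g018510 had 18.5 ± 1.93 FPKM in Jinlan control fruit and 35.6 ± 4.53 FPKM in Jinsha control fruit (SD, n = 3 each), a log2 difference of -0.91 that did not reach 2-fold. The identifier 20 below Cg3g018510 was lower in Jinlan by less (-0.65), while those 10 below and 20 above were not called, with log2 differences of -0.12 (limma adjusted p = 0.456) and 0.30 (limma adjusted p = 0.0676).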

How the data were processed

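The authors deposited FPKM values, 1 for each identifier in each library, in a table of the whole series, and these were used as they stand. Low values of different libraries showed no steps of whole reads, so depth is unknown and no counting interval is given. Which aligner, genome build and annotation were used is not given in the sources used here. Per the labels' protocols, total RNA from a Qiagen RNeasy kit went into SMARTER libraries. FPKM is relative to all other transcripts of a library, so a rise of abundant genes lowers the others. FPKM values were transformed to log2(FPKM + 1), which understates changes of low genes. No pair of control libraries shared a nonzero value (0%), so none was treated as a copy.

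Group means of the 6 control libraries were compared in R 4.3.3 with limma 3.58.1, using moderated variances that follow the mean, with Benjamini-Hochberg adjustment over the 16565 genes tested. The same genes were fitted in the 6 diseased libraries alone and, for the interaction, in all 12. Differences are Jinlan minus Jinsha. Library summaries were tested by exact permutation with scipy 1.17.1. Named genes followed a written rule: per direction, the 2 with the largest difference of mean FPKM among called, non-overlapping 2-fold genes, and the 2 with the largest opposite difference in diseased fruit among genes called at 2-fold in both. Gene lists by function could not be used without names. The comparison, members and lists were chosen with earlier results of these data known. Alternatives were other pseudocounts (0.1 and 5), filters, scalings, variance models, library weights, a fit to all 12 libraries, a block for replicate numbers, and fits that leave out 1 library each.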

Additional observations from a re-analysis of the deposited data

Results flagged for a closer look

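The cultivar difference itself differed between diseased and control fruit, tested as an interaction with limma. This was so for 9759 of the 16565 genes (58.9%). Among them were all 8 named genes, though for Cg4g007640, which passed the filter through Jinlan alone, the call is no test. The log2 values, the difference in diseased fruit minus that in control fruit, were -2.45 for Cg3g017900, -1.28 for Cg8g014070, -0.59 for Cg9g025190 and 1.26 for Cg3g018510. They were -7.14 for Cg8g006130, -9.32 for Cg4g007640, 4.25 for Cg8g017790 and 4.19 for Cg4g015400, which were picked for opposite differences. The value of Cg4g007640 depended on the pseudocount, being -11.98 with 0.1 and -6.25 with 5 in place of 1. The first 4 were picked for their control-fruit difference, which is a term of the interaction, so that a shift against it was favoured. None of the 8 values is independent support. For Cg9g025190 the negative value means a larger difference in diseased fruit (limma adjusted p = 0.0115, with 0.00352 to 0.0309 over 18 alternatives).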

How the results depend on the processing

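The numbers of 2-fold genes moved with the pseudocount. At 0.1, where 1 was used above, 522 genes were higher and 820 lower in Jinlan control fruit. Of the 820, 217 (26.5%) were called in the opposite direction in diseased fruit, near the 27.7% of all tested genes called higher. At 5, 163 genes were higher and 191 lower. Of the 163, 108 (66.3%) were called in the same and 33 (20.2%) in the opposite direction in diseased fruit. Of the 191, these were 109 (57.1%) and 50 (26.2%). Among all tested genes 27.8% were called higher and 38.7% lower there, so the 26.2% is near the share of any genes. The pseudocount sets how far low values are compressed. Of 174 counts of genes called in control fruit, followed in diseased fruit or called for the interaction, the other 165 lay within 1.5 times the values given. Outside these, genes switched on in Jinsha alone numbered 6 without Jinsha control replicate 2, against 2, and genes turned from lower to higher 69 without Jinlan control replicate 3, against 44. Leaving out each control library in turn gave 327 to 369 genes higher and 484 to 583 lower at 2-fold, and 2871 to 3306 and 5198 to 5688 at any fold. Over all 12 libraries left out in turn, the interaction was called for 9040 to 9544 genes. A further fit, chosen after seeing the data, left out replicate 3 of both Jinlan groups. In it 34.3% of the 583 genes lower in control fruit were called higher in diseased fruit, against 27.1% of all tested genes. Of 303 alternative values for the named genes, 302 kept their direction and side of the threshold, the exception being Cg8g017790 with robust empirical Bayes. Cg4g007640 has no value under the filter that asks for 1 FPKM in all 6 libraries.

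The labels do not say whether replicate numbers pair the libraries. Deviations of same-numbered control libraries of the cultivars correlated at 0.045, 0.0065 and -0.021, and those of different numbers at -0.095 to 0.077. Such values cannot settle whether libraries were handled together, and control libraries were not set against diseased ones. With the replicate number as a block, 346 genes were higher and 505 lower at 2-fold, and 3247 and 5769 at any fold. Depth is unknown, so how far counting error limits low values cannot be given.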

Other observations

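Identifiers fell into 11 classes by prefix, and the sources used here do not define the prefixes. Those with CgUng were tested least often, 398 of 2076 (19.2%), and of these 2 (0.50%) were at least 2-fold higher and 18 (4.52%) at least 2-fold lower in Jinlan control fruit. For the 9 prefixes Cg1g to Cg9g the shares were 1.54% to 2.73% higher and 2.46% to 3.74% lower. Of the 977 tested identifiers starting with NewGene, 15 (1.54%) were higher and 29 (2.97%) lower. Identifiers starting with NewGene held 3.25 ± 0.063% of the total FPKM in Jinlan and 3.23 ± 0.032% in Jinsha control libraries, which overlapped (SD, n = 3 each, exact permutation p = 0.5). In diseased libraries they held 3.68 ± 0.07% in Jinlan and 3.2 ± 0.081% in Jinsha, without overlap (exact permutation p = 0.1, the smallest possible).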
